A study of Homo sapiens with 6 samples.

Results

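The peaks described here are stretches of AGO2-bound RNA that map within annotated genes but read from the strand opposite to the gene. They come from a study of 22RV1, an established human prostate cancer cell line, in which either a mimic of miR-194 or a negative control was given at 20 nM, with 3 libraries for each. After 24 h the cells were irradiated with ultraviolet light, which joins proteins to the RNA they touch, and AGO2 was pulled down with its RNA (HITS-CLIP). The deposited table is a single list of 7772 peaks on hg19 with 1 score per peak and no value per library, so the mimic and the control could not be compared, no replicate stands behind a value, and depth is unknown. A peak belongs to the group when its annotation in the table reads "wrong strand" (210 peaks) or "overlaps antisense exon" (1 peak), which gives 211 of 7772 peaks (2.71%). The table gives none of the 211 a gene name, a transcript or a part of a gene.

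AGO2 carries microRNAs, and a microRNA finds its targets mainly through its seed, the bases near its 5′ end, which pair with a complementary stretch of the target RNA. Because adapters are joined to the RNA itself, a read in such a protocol keeps the strand of the RNA it came from. RNA from the strand opposite to a gene can come from a separate antisense transcript, from a divergent promoter, or from a neighbouring gene whose transcript runs past its annotated end. Which of these, if any, applies to a given peak was not tested.

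The mature miR-194-5p sequence (RefSeq, GRCh38.p14) is shown because each listed site is read against it. Its seed, bases 2 to 8, is in capitals.
hsa-miR-194-5p: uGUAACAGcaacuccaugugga
A site is called an 8mer when it holds CTGTTACA, a 7mer-m8 when it holds CTGTTAC, a 7mer-A1 when it holds TGTTACA, and a variant when it lacks the 6 bases TGTTAC that all of these share. A 7mer match means any of the first 3 classes. The sites below are 8 of the 9 listed in wrong-strand peaks, on the strand of the peak's own RNA, with TGTTAC in capitals where it is present. The ninth, an 8mer, is not printed.
chr15:90620899-90620999, minus strand: cTGTTACtt
chr19:58945698-58945771, plus strand: tcTGTTACt
chr7:156448091-156448181, minus strand: tTGTTACag
chr17:7984757-7984911, plus strand: tTGTTACat
chr7:66048739-66048812, minus strand: tTGTTACag
chr22:41928625-41928723, plus strand: acTGTTACc
chr13:77622184-77622230, plus strand: ctgttatat
chr20:58513074-58513140, minus strand: ccagttaca

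Sites for miR-194 were scarce in the wrong-strand peaks. A 7mer match was listed in 7 of 211 (3.32%, 95% interval 1.34 to 6.72%), against 1031 of 7561 other peaks (13.6%, 12.9 to 14.4%). Over all 7772 peaks the share was 13.4%. Any site, variants included, was listed in 9 wrong-strand peaks (4.27%, 1.97 to 7.94%), against 1500 other peaks (19.8%, 18.9 to 20.8%), where the share over all peaks was 19.4%. The intervals are exact Clopper-Pearson intervals and cover counting error only. For both measures the interval of the wrong-strand peaks lay below that of the other peaks. Intron peaks had a similarly low share, with a 7mer match in 73 of 1585 (4.61%, 3.63 to 5.76%), and their interval overlapped that of the wrong-strand peaks.

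All 9 sites were listed on the peak's own strand, and none on the opposite strand, which is the strand of the annotated gene. A count of 0 of 211 allows a share of up to 1.42% of peaks. Over all peaks a 7mer on the opposite strand was listed in 0.373%, so a share of that size was not detectable among 211 peaks. Of the sites in the other peaks, 1568 were on the own strand and 60 on the opposite strand (96.3% own, 95.3 to 97.2%). The 9 sites of wrong-strand peaks give 100% own strand with an interval of 66.4 to 100%, which includes that value.

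The 7 peaks with a 7mer match were of low to moderate score. The highest scored 32, at chr15:90620899-90620999 on the minus strand, with a 7mer-m8 located 8 nt from the peak centre. Next came scores of 24 for the 7mer-m8 peak at chr19:58945698-58945771 and for the 7mer-A1 peak at chr7:156448091-156448181, with the sites 5 and 6 nt from the centre. The 7mer-A1 peaks at chr17:7984757-7984911 and chr7:66048739-66048812 scored 20 and 17, and their sites lay 19 and 14 nt from the centre. The remaining peaks with a match were a 7mer-m8 peak that scored 14 (chr22:41928625-41928723, site 14 nt from the centre) and the single 8mer peak, which scored 13 (chr8:6491366-6491405, minus strand, site 9 nt from the centre). Both variant sites were in peaks of low score, 14 on chromosome 13 and 12 on chromosome 20. The chromosome 20 peak is the only one annotated as overlapping an antisense exon.

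The 7 peaks with a 7mer match had a median score of 20 (13 to 32) and a median length of 91 nt, against a median score of 13 (5 to 117) and a median length of 51 nt in the 202 without any site. The ranges overlap, and the 8 highest-scoring wrong-strand peaks hold no listed site.

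The rows of the table are arranged in blocks by part of the gene, and the wrong-strand peaks stand within these blocks. There were 144 (68.2%) among the intron rows, 35 (16.6%) among the exon rows, 29 (13.7%) directly after the 3′ UTR rows and 3 (1.42%) among the 5′ UTR rows. The place of the row is the only hint at the part of the gene that a peak opposes, and the sources used here do not state that it has this meaning. The listed bases differ in the same way as the blocks do: in both exon-block peaks TGTTAC starts at place 3 of the 9 listed bases, as in the plus-strand sites tcTGTTACt and acTGTTACc above, and in the intron-block peaks it starts at place 2. This rests on 2 exon-block and 5 intron-block peaks, and the place of TGTTAC in annotated exon and intron peaks is not given here. All 35 peaks of the exon block carry a value for the distance from the peak centre, as all 2567 exon peaks do, whether or not a site is listed. Between the last exon row and the first intron row, peaks without this value were put in the intron block. For those rows the match was therefore fixed by that choice.

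Set against the class whose rows they share, wrong-strand peaks differed by block. In the intron block 5 of 144 had a 7mer match (3.47%, 1.14 to 7.92%), against 4.61% of intron peaks, a difference within the intervals. In the exon block 2 of 35 had one (5.71%, 0.700 to 19.2%), against 386 of 2567 exon peaks (15.0%, 13.7 to 16.5%), also within the wider interval. In the 3′ UTR block 0 of 29 had one, which allows a share of up to 10.3% (exact interval up to 11.9%), against 354 of 1791 3′ UTR peaks (19.8%, 17.9 to 21.7%). These last intervals do not overlap. The sources used here do not say whether sites were searched for in the 29 wrong-strand peaks after the 3′ UTR rows. None of these 29 carries a value for the distance from the peak centre, against 506 of 1791 3′ UTR peaks that do.

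**Figure D1:**
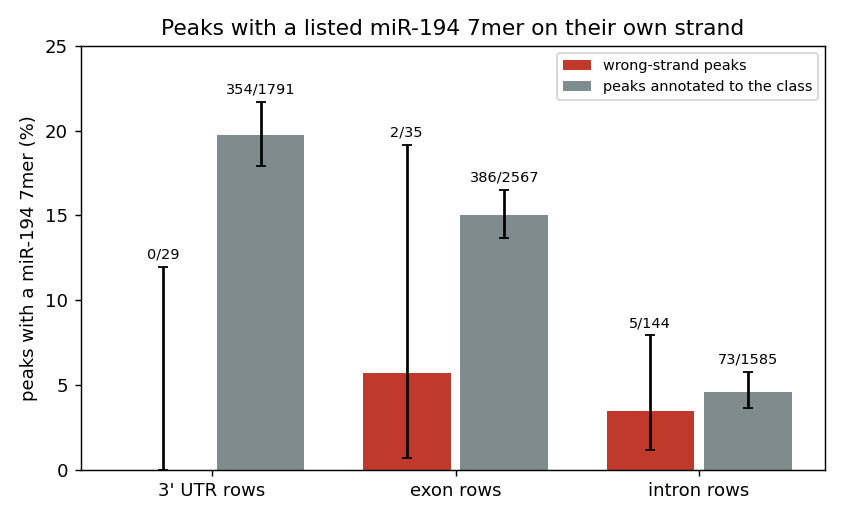
Share of peaks with a listed miR-194 7mer on their own strand (y axis, percent) for wrong-strand peaks (red) and for the peaks annotated to the class whose rows they share (grey), with exact 95% intervals and counts above the bars. The shares of wrong-strand peaks are 0%, 5.71% and 3.47% for the 3′ UTR, exon and intron rows, against 19.8%, 15.0% and 4.61% of the annotated peaks.

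Scores of wrong-strand peaks lay in the low part of the list. The score is the authors' own, and here it serves to order and describe the peaks of 1 list. The median was 13 (interquartile range 12 to 15, from 5 to 117), against 15 (12 to 24, from 5 to 1270) in all other peaks. Scores of 12 or more were held by 182 wrong-strand peaks (86.3%), against 6204 others (82.1%). Higher levels were rarer in wrong-strand peaks: 25 wrong-strand peaks (11.8%) scored 20 or more, against 32.0% of other peaks, and 5 (2.37%) scored 50 or more, against 10.7%. The median and quartiles were those of intron peaks, 13 (12 to 15), and close to those of intergenic peaks, 14 (12 to 16).

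The spread was widest in the 3′ UTR block, which held 7 of the 8 highest wrong-strand peaks. There the median was 15 (12 to 32, highest 95), against 17 (12 to 35) in 3′ UTR peaks. In the exon block it was 13 (12 to 14, highest 24), against 17 (12 to 31) in exon peaks. In the intron block both medians were 13, with a quartile range of 12 to 15 in each, and the highest scores were 117 in wrong-strand peaks and 187 in intron peaks.

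**Figure D2:**
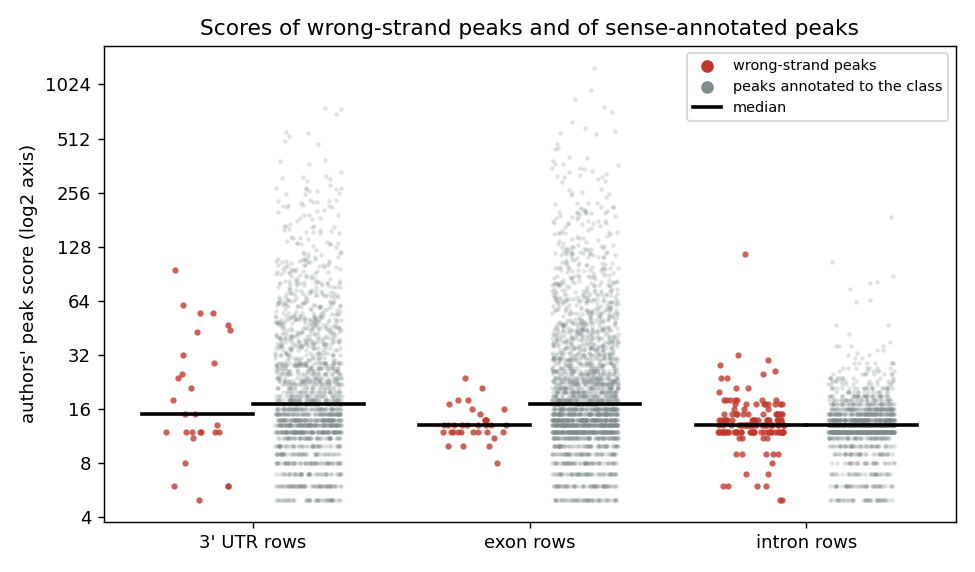
The authors' peak score (y axis, log2 scale) of wrong-strand peaks (red points) and of the peaks annotated to the class whose rows they share (grey points), with black lines at the medians. Red medians are 15, 13 and 13 for the 3′ UTR, exon and intron rows, against 17, 17 and 13 for the grey points, and no red point in the exon rows exceeds 24.

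The highest wrong-strand peak scored 117, at chr15:83041346-83041398 on the minus strand (53 nt, intron block). It stood alone: the nearest peak of another class on its strand was in an intron of AP3B2, an adaptor protein subunit, 296035 nt away. The second scored 95, at chr5:76031083-76031138 on the minus strand (3′ UTR block). Its nearest peak of another class on the same strand was 1953492 nt away, and the nearest on the opposite strand belonged to F2RL1, a protease-activated receptor gene, at 98465 nt. Neither of the 2 highest peaks thus has a named peak within 10 kb on either strand.

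Several of the next peaks lay downstream of a named peak on their own strand, counted in the direction of the RNA. The peak at chr8:17886618-17886700 (score 61, minus strand) lay 28057 nt downstream of a 3′ UTR peak of ASAH1, the gene of acid ceramidase, and 39739 nt from an intron peak on the opposite strand in PCM1, a gene for a centriolar satellite protein. Adjoining peaks at chr1:179071189-179071212 (score 55) and chr1:179071215-179071273 (score 44), both on the plus strand, lay 26707 and 26733 nt downstream of a 3′ UTR peak of FAM20B, a xylosylkinase gene, which scored 212. The peak at chr7:131177461-131177522 (score 47, minus strand) lay 8797 nt downstream of a 3′ UTR peak of PODXL, which codes for the surface sialomucin podocalyxin, and that peak scored 15. The peak at chr6:44267753-44267874 (score 43, plus strand) lay 1924 nt from an exon peak on the opposite strand in AARS2, a mitochondrial alanyl-tRNA synthetase gene, that scored 14.

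The rest of the 15 highest wrong-strand peaks scored between 25 and 55. The peak at chr4:69093164-69093265 scored 55 and had no named peak on either strand within 10 kb. On chromosome 1 the peak at 193060176 to 193060280 (minus strand, score 28) lay 5499 nt from a non-coding transcript peak of TROVE2 on the opposite strand, which scored 59. TROVE2 codes for the Ro60 RNA-binding protein. The other peaks of this rank were on chromosomes 17 (30657907 to 30657966, score 32), 9 (139732514 to 139732592, score 30), 3 (49307455 to 49307500, score 29), 5 (137238083 to 137238150, score 26) and 1 (34055865 to 34055903, score 25, tied with the peak at 49307607 to 49307630 on chromosome 3), together with the chromosome 15 peak with a site that was given above.

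Wrong-strand peaks were shorter than the rest. Their median length was 51 nt (interquartile range 42 to 68.5), against 67 nt (49 to 93) in all other peaks. Intron and intergenic peaks both had a median of 57 nt (44 to 75 and 43 to 79). The shortest wrong-strand peak had 6 nt and the longest 169 nt. In each block the wrong-strand median was below that of the class: 56 against 76 nt in 3′ UTR rows, 57 against 70 nt in exon rows and 49.5 against 57 nt in intron rows. A longer peak has more room for a site, and the share of peaks with a match was not adjusted for length.

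Most wrong-strand peaks were isolated. With peaks on 1 strand within 100 nt of each other joined, the 211 peaks formed 180 runs, of which 154 held 1 peak, 22 held 2 and 4 held more. Runs of 2 or more made up 14.4% of wrong-strand runs, against 13.0% of intron runs, 15.8% of intergenic runs and 39.0% of 3′ UTR runs. With runs as the unit, a 7mer match was present in 7 of 180 wrong-strand runs (3.89%, 1.58 to 7.85%), against 71 of 1385 intron runs (5.13%, 4.03 to 6.42%).

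The run with the most peaks had 4 over 292 nt on the minus strand at chr7:156467806-156468097, with scores of 18, 12, 9 and 7. Its nearest peak of another class on the same strand was an exon peak of LMBR1, a membrane protein gene, 52774 nt upstream of the lowest coordinate peak of the run, which scored 9. The 7mer-A1 peak at chr7:156448091-156448181 described above lay on the same strand, 17413 nt from the nearest wrong-strand peak, and 72444 nt downstream of the same LMBR1 peak. The 3 other runs of more than 2 peaks had 3 each, over 312 nt on chromosome 19, 176 nt on chromosome 3 and 319 nt on chromosome 22. At chr19:58945460-58945771 (plus strand) the scores were 24, 21 and 10, and the peak that scored 24 holds the 7mer-m8 shown above. The run at chr3:49307455-49307630 (plus strand) scored 29, 25 and 15 without a site. On chromosome 22 the run from 41928625 to 41928943 (plus strand) scored 14, 9 and 5, and its highest peak holds the other exon-block 7mer-m8. An isolated peak that scored 14 lay 404 nt before it.

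No wrong-strand peak overlapped a peak on the opposite strand. The count was 0 of 211, which allows a share of up to 1.42%, and it was 0 of all 7772 peaks (0%), so the absence of overlap is shared by the whole list. The nearest approach of peaks on opposite strands was 8 nt, between the wrong-strand peak at chr9:140060646-140060710 (minus strand, score 11) and an intron peak of GRIN1, an NMDA receptor subunit gene, that scored 13. It was the only wrong-strand peak within 100 nt of an opposite-strand peak, and 5 (2.37%, 0.774 to 5.44%) were within 1000 nt, against 20 other peaks (0.265%, 0.162 to 0.408%).

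Within 10 kb, wrong-strand peaks had an opposite-strand neighbour more often than other peaks did. There were 32 of 211 (15.2%, 10.6 to 20.7%), against 266 of 7561 other peaks (3.52%, 3.11 to 3.96%), and over all peaks the share was 3.83%. Intron peaks had one in 1.96% (1.33 to 2.77%), intergenic peaks in 4.24% (2.49 to 6.70%) and peaks at transcript ends in 9.59% (6.94 to 12.8%). Promoter peaks had one in 8.0% (5.60 to 11.0%). The interval of wrong-strand peaks lay above those of intron and intergenic peaks and overlapped those of transcript ends and promoters. With runs as the unit the share was 14.4% (26 of 180, 9.66 to 20.4%), against 1.88% of intron runs (1.23 to 2.74%). Without chromosomes 16, 19 and 22 it was 12.5% (7.81 to 18.6%), against 1.81% of intron peaks (1.15 to 2.71%). By its annotation a wrong-strand peak lies opposite a gene, and the part of this in the difference was not tested. By block, 7 of 29 peaks in the 3′ UTR block (24.1%), 8 of 35 in the exon block (22.9%) and 14 of 144 in the intron block (9.72%) had such a neighbour, against 3.35% of 3′ UTR, 2.49% of exon and 1.96% of intron peaks. All 3 peaks of the 5′ UTR block had one too. The median distance to the nearest opposite-strand peak was 94144 nt, against 249098 nt in all other peaks.

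**Figure D3:**
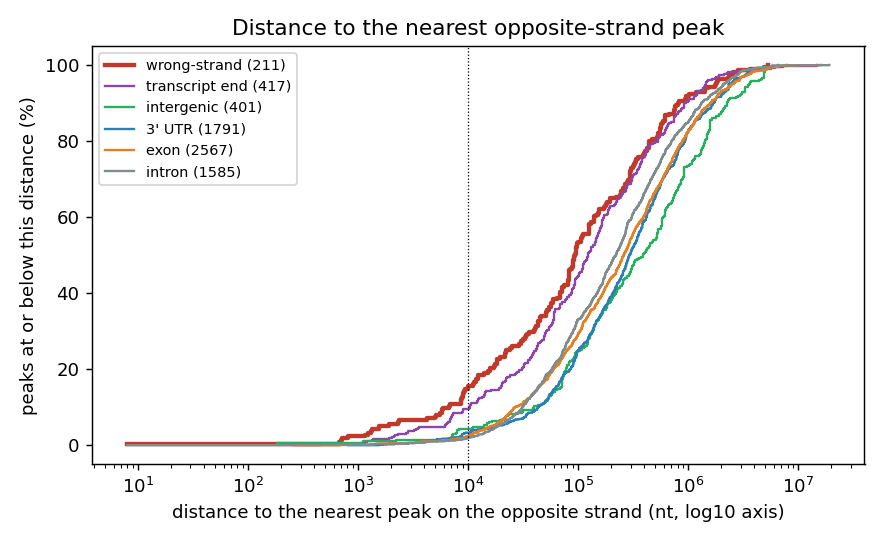
Cumulative share of peaks (y axis, percent) by distance to the nearest peak on the opposite strand (x axis, nt, log10 scale), for wrong-strand peaks (thick red line) and 5 other classes, with the number of peaks in the legend and a dotted line at 10 kb. At 10 kb the red line is at 15.2%, against 9.59% for transcript ends and 1.96% for introns.

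Of the 32 peaks, 3 had another wrong-strand peak as the opposite-strand neighbour, all on chromosome 11. The gaps were 9059 nt or more, and the plus-strand and minus-strand RNAs ran away from each other. Another 1 had an intergenic peak and 28 had a named peak, from 22 genes. The closest after GRIN1 was an exon peak of PNPLA7, a lysophospholipase gene (score 13), at 666 nt from the wrong-strand peak at chr9:140393316-140393373 (score 13). Adjoining wrong-strand peaks at chr12:7087020-7087051 and chr12:7087054-7087068, both with a score of 14, lay 715 and 698 nt from an exon peak of LPCAT3, a phospholipid acyltransferase gene, which scored 7. A peak at chr16:72822370-72822410 (score 14) lay 1155 nt from an exon peak of ZFHX3, a zinc finger homeobox gene mutated in some prostate cancers, which scored 48. A peak at chr2:48016993-48017027 (score 14) lay 9311 nt from an exon peak of MSH6, of the mismatch repair pathway, which scored 58. In the last 2 pairs the peak on the gene's strand had the higher score.

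Peaks of 1 gene on the opposite strand flanked 3 wrong-strand peaks, which places these peaks against a named gene. A peak at chr16:2279155-2279195 (minus strand, score 24) lay within the span of 4 intron peaks of E4F1, a zinc finger protein gene, that scored 12 to 17. A peak at chr7:101624182-101624230 (minus strand, score 13) lay within the span of 4 intron peaks of CUX1, a homeobox factor gene, that scored 13 to 19. A peak at chr22:31527778-31527847 (minus strand, score 13) lay between 2 exon peaks of INPP5J, an inositol phosphatase gene, that scored 11 and 18. The E4F1 case is the one where the wrong-strand peak scored above every peak on the gene's strand. None of the 211 lay between same-strand peaks of a named gene, which their annotation to the wrong strand largely sets in advance. Neither count was set beside one for other peaks.

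On their own strand, wrong-strand peaks had few neighbours of other classes. Another peak on the same strand lay within 10 kb of 84 (39.8%, 33.2 to 46.8%), against 45.6% of intron peaks (43.1 to 48.1%), and in 74 of the 84 that nearest peak was itself a wrong-strand peak. The matching count for other classes is not given here. Runs of 2 or more peaks made up 14.4% of wrong-strand, 13.0% of intron and 15.8% of intergenic runs, so such grouping was not particular to wrong-strand peaks. A peak of another class was within 10 kb of 25 (11.8%, 7.82 to 17.0%), against 19.6% of intron peaks (17.7 to 21.7%) and 16.2% of intergenic peaks (12.7 to 20.2%). The interval lay below that of intron peaks and overlapped that of intergenic peaks. By annotation an intron peak lies in a gene on its own strand, and the part of this in the difference was not tested. Peaks of the same class were not counted, which left out 1585 peaks for intron peaks and 211 for wrong-strand peaks.

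Where such a neighbour existed, it was upstream of 18 of the 25 (72.0%, 50.6 to 87.9%), against 164 of 311 intron peaks (52.7%, 47.0 to 58.4%) and 54 of 65 intergenic peaks (83.1%, 71.7 to 91.2%). The interval for 25 peaks overlapped both of the others. Examples with the neighbour upstream are 2 peaks at chr16:69355335-69355374 (score 18) and chr16:69358012-69358110 (score 12), which lay 7260 and 4524 nt downstream of a 3′ UTR peak of COG8, a Golgi complex subunit gene, that scored 16. The peak at chr17:61775244-61775296 (score 12) lay 3747 nt downstream of a 3′ UTR peak of the kinase gene MAP3K3 that scored 15. A peak at chr5:176886555-176886599 (score 17) lay 3270 nt downstream of a transcript-end peak of PRR7 that scored 57. Among those with the neighbour downstream, the peak at chr3:48701405-48701451 (score 13) lay 245 nt from a promoter peak of CELSR3, a cadherin gene, that scored 9.

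The lists of non-coding genes could be applied only to these neighbours, because the wrong-strand peaks have no gene names. Of 36 named antisense or divergent RNA genes in the table, 1 had a peak within 10 kb. The promoter peak named for A1BG-AS1 (score 16) was on the strand opposite to 2 adjoining wrong-strand peaks. These were chr19:58868475-58868524 (score 12) and chr19:58868527-58868558 (score 13), at 5012 and 5064 nt from it. The strand of the A1BG-AS1 gene itself was not looked up. A promoter peak does not give it, since 13 of 80 checked promoter peaks were on the strand opposite to their gene. Of 72 genes for small RNAs and their hosts, 1 had a peak within 10 kb. The transcript-end peak named for SNORD105, a small nucleolar RNA gene, scored 13. It lay 8187 nt upstream of the wrong-strand peak at chr19:10227410-10227451 (score 18). None of 28 other long non-coding genes was a neighbour at this distance. The lists go by gene name, and the antisense list takes names ending in -AS, -OT, -IT or -DT. FAM120AOS is thus not in it, though its transcript-end peak (score 21) lay 6872 nt from the peak at chr9:96215583-96215625 (score 12), on the opposite strand. No share over other peaks is given here, so these counts describe the neighbours only.

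The wrong-strand peaks were on 23 chromosomes, 91 on the plus strand and 120 on the minus strand. The plus-strand share was 43.1% (36.3 to 50.1%), against 50.0% of other peaks (48.9 to 51.2%), and the intervals overlapped. Peaks of both strands had a median score of 13.

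Chromosome 19 held the most, with 24 of 211 (11.4%, 7.43 to 16.5%), against 428 of 7561 other peaks (5.66%, 5.15 to 6.21%). These 24 peaks formed 20 runs. Intron peaks were on chromosome 19 in 8.96% of cases, which lies within the interval of the wrong-strand peaks. Chromosomes 20 and 22 had 12 (5.69%, 2.97 to 9.72%) and 13 (6.16%, 3.32 to 10.3%), against 2.65% and 3.08% of other peaks, and chromosome 6 had 3 (1.42%, 0.294 to 4.10%), against 4.11%. Of the 23 chromosomes set side by side, chromosome 19 was the only one whose intervals for wrong-strand and other peaks did not overlap.

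**Figure D4:**
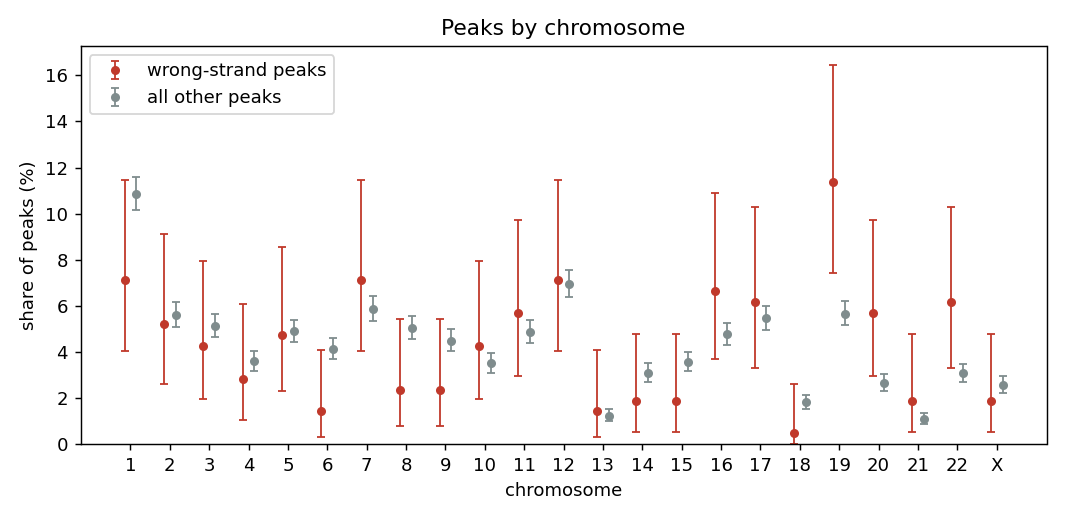
Share of peaks on each chromosome (y axis, percent) for wrong-strand peaks (red) and all other peaks (grey), with exact 95% intervals. Chromosome 19 is at 11.4% for wrong-strand peaks, against 5.66% for all other peaks.

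Peaks on the strand opposite to the gene they are named for also occurred outside this annotation, among transcript-end and promoter peaks. In 96 transcript-end peaks and 80 promoter peaks of genes whose strand is set by exon or UTR peaks, 14 (14.6%, 8.21 to 23.3%) and 13 (16.2%, 8.95 to 26.2%) were on the other strand. They carry the gene's name all the same. Whether their RNA comes from another gene on the peak's own strand was not looked up. Their median scores were 22.5 and 15, against 16 over all transcript-end peaks and 14 over all promoter peaks. The median of the 211 wrong-strand peaks was 13. The highest was the transcript-end peak named for MRPL49, a mitochondrial ribosomal protein gene, at chr11:64894812-64895014 on the minus strand, which scored 475 and holds a 7mer match. At FBXL16, an F-box protein gene with a 3′ UTR peak on the minus strand (score 15), the transcript-end peak (score 25) was on the plus strand, as were 3 wrong-strand peaks with scores of 12, 9 and 8 within 10 kb of that 3′ UTR peak. The peaks that scored 12 and 9 lay past the transcript-end peak in the direction of FBXL16. Which gene they oppose was not looked up.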

How the data were processed

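The labels list 6 AGO2 HITS-CLIP libraries of 22RV1 cells, 3 per group, and do not say whether they came from separate cultures. Per the submitters' processing notes the tools were MACS2, SAMtools, TopHat2 2.0.9, FastQC and cutadapt 1.8.1, and the build was hg19, with roles and settings not stated. The deposited score is made by the authors, 1 whole number per peak, and its meaning, and whether the libraries were pooled, are not given in the sources used here. The peak names say that peaks were merged and called by strand. There were 0 columns of other samples.

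Peaks were taken by their annotation text. Coordinates are as deposited, and length is end minus start plus 1. Distances run between facing ends. Sites listed on the opposite strand were classed on their reverse complement. Shares have exact Clopper-Pearson 95% intervals, and the floor for a count of 0 is 3 counts. Peaks of 1 list are not replicates, so no test was made. Lengths, scores and distances were given as medians with quartiles. Python 3.11.15, numpy 2.4.6, pandas 2.3.3, scipy 1.17.1 and matplotlib 3.10.9 were used.

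Row blocks, runs, neighbour sides and single chromosomes were looked at after the values were seen. Named are the 15 highest peaks, each peak with a listed site and members beside a listed gene. The other examples were chosen after their values were seen. The planned use of gene names failed, since the peaks have none. The peaks, lists and comparisons were chosen with earlier results of these data known. The check against cell type markers is not reported here.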

Additional observations from a re-analysis of the deposited data

How the results depend on the processing

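Over 7 results, 16 of 21 alternatives left the value unmoved and 5 moved it. For medians and shares, unmoved means within the interval. The number of wrong-strand peaks has no interval, and there 210 was taken as unmoved from 211 and 1 as moved. Some of these outcomes were fixed in advance. A count of 0 stays 0 under a stricter setting, as for 8mers alone on the opposite strand, a larger overlap or a score minimum. A cut above the list's median score must raise the median score. The counts are thus no measure of robustness. With the annotation "overlaps antisense exon" alone the number of wrong-strand peaks was 1. Among peaks above the median score of the whole list (50 wrong-strand peaks) the median score was 19 and the share with a 7mer match 10.0%, against 24.1% of the 3415 other peaks. With 8mers alone the share was 0.474%. With neighbours within 1000 nt counted as overlap, 2.37% of wrong-strand peaks had an opposite-strand partner. Taking 1 peak per run, leaving out the 3′ UTR rows, and counting opposite-strand neighbours by run or without 3 chromosomes are alternatives that were added after seeing the data. Both alternatives that take 1 peak per gene, and the share of peaks whose gene also has a sense-strand peak, could not be run, since the peaks have no gene or transcript. No paired analysis was possible because the table holds no value per library, and leaving out a library was not possible for the same reason. The unknown depth limits every count of 0 to the floor that is printed beside it.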
